A study of Mus musculus with 13 samples.

Results

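In the mouse midbrain, 10 genes listed for the glucocorticoid response were followed: 7 genes listed as glucocorticoid-induced and called the induced genes below (Fkbp5, Tsc22d3, Zbtb16, Sgk1, Sgk3, Plin4 and Pdk4), the 2 receptors that bind corticosterone (Nr3c1, the glucocorticoid receptor, and Nr3c2, the mineralocorticoid receptor) and Hsd11b1, the enzyme that regenerates active corticosterone inside cells. They were chosen by name, with earlier results of these data known. They are 10 of the 49315 genes counted in each library. All 10 were among the 19360 genes that had at least 10 counts in at least 3 libraries and could be tested. The libraries came from whole midbrains of 13 male mice, 8 to 12 weeks old, on a C57BL/6J background. Every mouse was Ripk3fl/fl, so that the necroptosis kinase gene Ripk3 was flanked by recombination sites in all groups. Cre+ mice also carried Aldh1l1-Cre/ERT2, a recombinase that tamoxifen activates and that the Aldh1l1 promoter directs to astrocytes, and Cre- mice were littermates without it. The labels give tamoxifen (60 mg/kg) for 5 days at least 1 week before the experiment. They give it for mice of both genotypes, whereas the study's methods name only carriers of the transgene, so whether Cre- mice received it is not settled here. MPTP, a toxin that kills dopaminergic neurons, was injected at 20 mg/kg on 5 consecutive days, or Saline in its place, and tissue was taken 3 days after the last dose. There were 3 mice each in Cre- Saline, Cre+ Saline and Cre- MPTP, and 4 in Cre+ MPTP. Deletion was restricted to astrocytes by design, so that other cells of the tissue kept Ripk3, and in whole tissue fewer cells of a type and less RNA per cell cannot be told apart.

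Corticosterone, the main glucocorticoid of mice, enters cells freely and binds Nr3c1, which is held ready in the cytoplasm by Hsp90 and its partner proteins. The bound receptor moves to the nucleus and raises transcription of genes that carry its response element, a palindrome of paired hexamers. In brain, such induced genes are known from astrocytes, oligodendrocytes and cells of the vessel wall, and several of them also answer to inflammatory signals or to fasting. Fkbp5 encodes a co-chaperone that lowers hormone binding by the receptor and so closes a feedback loop.

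The sequences before the start sites are shown because the receptor acts on DNA and because Sgk1 holds its full element there. RefSeq promoter windows (GRCm38.p6, 250 bases before to 50 bases after a start site) were at hand for 7 of the 10 genes, in 14 windows. No window was used for Zbtb16, Sgk3 and Nr3c1, and 5 of the 14 are printed here. The element was searched as AGAACA, then 3 bases of any kind, then TGTTCT, which reads alike on both strands, and each hexamer alone (AGAACA or TGTTCT, which covers both strands) was searched as a single hexamer, so that a full element also counts as such. The full element was in 3 of 32851 windows (0.00913%) and at least 1 single hexamer in 19% of them. Of the 14 windows of these genes, 1 held the full element and 4 held at least 1 hexamer, 3 of them at Sgk1 and 1 at Tsc22d3. Capitals mark hexamers and, in the first sequence, the whole element with its spacer.
Sgk1, chr10:21993640-21993939, plus strand: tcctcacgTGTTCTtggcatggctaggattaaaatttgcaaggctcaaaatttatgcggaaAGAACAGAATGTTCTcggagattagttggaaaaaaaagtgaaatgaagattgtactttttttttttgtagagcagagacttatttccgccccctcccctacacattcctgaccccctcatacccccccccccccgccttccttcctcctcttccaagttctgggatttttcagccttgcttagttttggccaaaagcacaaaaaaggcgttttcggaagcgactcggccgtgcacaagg
Sgk1, chr10:21881934-21882233, plus strand: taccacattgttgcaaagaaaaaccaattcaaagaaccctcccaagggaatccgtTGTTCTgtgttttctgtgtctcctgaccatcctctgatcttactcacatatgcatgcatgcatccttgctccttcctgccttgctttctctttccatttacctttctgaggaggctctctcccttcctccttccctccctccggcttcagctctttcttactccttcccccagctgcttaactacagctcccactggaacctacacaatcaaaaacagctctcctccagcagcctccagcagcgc
Tsc22d3, chrX:140600473-140600772, minus strand: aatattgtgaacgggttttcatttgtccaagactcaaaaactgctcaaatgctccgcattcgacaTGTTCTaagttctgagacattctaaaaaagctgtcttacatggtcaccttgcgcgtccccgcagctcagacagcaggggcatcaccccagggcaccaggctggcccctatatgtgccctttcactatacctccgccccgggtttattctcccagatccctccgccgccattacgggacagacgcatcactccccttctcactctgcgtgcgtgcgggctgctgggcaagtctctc
Fkbp5, chr17:28486100-28486399, minus strand: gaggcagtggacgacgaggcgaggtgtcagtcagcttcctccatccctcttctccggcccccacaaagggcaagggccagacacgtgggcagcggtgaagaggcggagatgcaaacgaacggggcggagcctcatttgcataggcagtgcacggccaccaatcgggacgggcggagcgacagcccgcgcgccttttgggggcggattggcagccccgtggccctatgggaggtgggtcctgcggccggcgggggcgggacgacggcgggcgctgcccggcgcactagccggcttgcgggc
Plin4, chr17:56109733-56110032, minus strand: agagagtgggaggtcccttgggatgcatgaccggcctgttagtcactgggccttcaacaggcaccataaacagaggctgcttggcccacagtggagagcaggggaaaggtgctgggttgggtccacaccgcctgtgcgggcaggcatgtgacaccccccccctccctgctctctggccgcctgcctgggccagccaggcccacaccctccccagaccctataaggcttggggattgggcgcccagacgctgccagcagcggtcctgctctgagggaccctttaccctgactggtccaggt
In the first Sgk1 window the full element lay from 189 to 175 bases before the start site, and a further hexamer from 242 to 237 bases before it. The second Sgk1 window and the Tsc22d3 window held 1 hexamer each. The Fkbp5 and Plin4 windows, shown because these genes had the lowest adjusted p-values in Cre- mice given MPTP, held neither hexamer. Only these exact letters were searched, which says nothing of variant elements or of sequence farther away.

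Total counts ranged from 11489150 to 29397278 per library. Cre- MPTP replicate 1 stood apart, with the lowest total, 21101 genes with a count against 25432 to 27186 elsewhere and 1.12% of counts from mitochondrial genes against 3.55% to 6.06%. Cre+ MPTP replicate 4 stood apart by its muscle markers (6 genes, cardiac Myh6 highest), which summed to 6334 CPM against 11.7 to 147.4 in the other 12 libraries. CPM here are counts scaled to a common library size with edgeR's TMM factors. Ripk3 itself had 4 to 11 counts in Cre- Saline, 6 to 10 in Cre+ Saline, 6 to 40 in Cre- MPTP and 4 to 19 in Cre+ MPTP, or 0.159 to 0.402, 0.228 to 0.394, 0.65 to 1.32 and 0.224 to 0.702 CPM, so that the Saline genotypes overlapped and loss of the gene from astrocytes was not detectable at this depth in whole tissue (Cre+ minus Cre- by edgeR, log2 0.25, SE 0.54, adjusted p = 1 under Saline and -1.11, SE 0.45, adjusted p = 0.224 under MPTP). Markers of neurons (summed 2195 to 3918 CPM), dopaminergic neurons (182 to 343.6), astrocytes (1216 to 2610) and oligodendrocytes (8754 to 16170) were present in every library. So were those of endothelial cells (187.4 to 389.3, highest in Cre- MPTP replicate 1) and microglia (148.1 to 272.6). With MPTP in Cre- mice, edgeR called 1 of 5 astrocyte markers higher. It called 1 of 5 lower in each of oligodendrocytes, endothelial cells and microglia, and 0 of 5 in neurons and dopaminergic neurons. Among all genes tested, it called 2.23% higher and 0.956% lower. Neutrophil markers moved with the groups: 3 of 5 could be tested and all 3 passed as higher after MPTP in Cre- mice, with summed levels of 7.61 to 50.3 CPM in Cre- MPTP, 0.725 to 3.02 in Cre+ MPTP and 0.159 to 1.75 in the Saline groups, and Ly6g was at 0 in 10 libraries. Meningeal fibroblast markers summed to 177.8 to 196.6 CPM in Cre- MPTP and 107.4 to 165.4 elsewhere, with 1 of 5 called higher there (Dcn, log2 fold change 1.52, SE 0.33, edgeR's adjusted p = 0.027), and mural cell markers to 74.1 to 158.8 CPM against 166.9 to 273.6, with 0 of 5 called by edgeR and 2 at an unadjusted p under 0.05. Pituitary markers summed to 604.7 and 444.5 CPM in Cre+ Saline replicates 1 and 3 against 5.78 to 81.9 in the other libraries. Without either of these 2 libraries in turn, 0 of the 10 genes and 0 of all genes were called with MPTP in Cre+ mice. The same held with every library, so these fits cannot show the part of the 2 libraries. The part of these libraries and cells in the values that follow was not tested, except where a value without a library is given.

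Per kilobase of exon, Tsc22d3 had the highest level in Cre- Saline midbrain at 23.2 ± 2.29 CPM per kb (SD, n = 3), and its libraries did not overlap with those of the next gene, Sgk1 (12.5 ± 6.09). Sgk1, Nr3c1 (9.64 ± 0.404) and Hsd11b1 (8.36 ± 1.6) overlapped in that order. Nr3c2 followed at 5.6 ± 0.267, and then came Fkbp5 (3.4 ± 0.259), Pdk4 (3.15 ± 0.414) and Zbtb16 (2.8 ± 0.421), which overlapped with each other in that order. Sgk3 (0.922 ± 0.0735) and Plin4 (0.447 ± 0.0958) were lowest and did not overlap. Cre+ Saline kept this order of means. In Cre- MPTP, Sgk1 came first at 56.7 ± 3.01 CPM per kb, clear of Tsc22d3 (31.4 ± 2.37), and Plin4 had gone from the tenth place to the third at 27.8 ± 2.96, overlapping with Tsc22d3 and with Fkbp5 (22.9 ± 4.9). In Cre+ MPTP, Tsc22d3 was again first at 21.9 ± 2.26 (n = 4), overlapping with Sgk1 (15.6 ± 5.95), and Plin4 was in the ninth place at 4.96 ± 3.85.

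**Figure D1:**
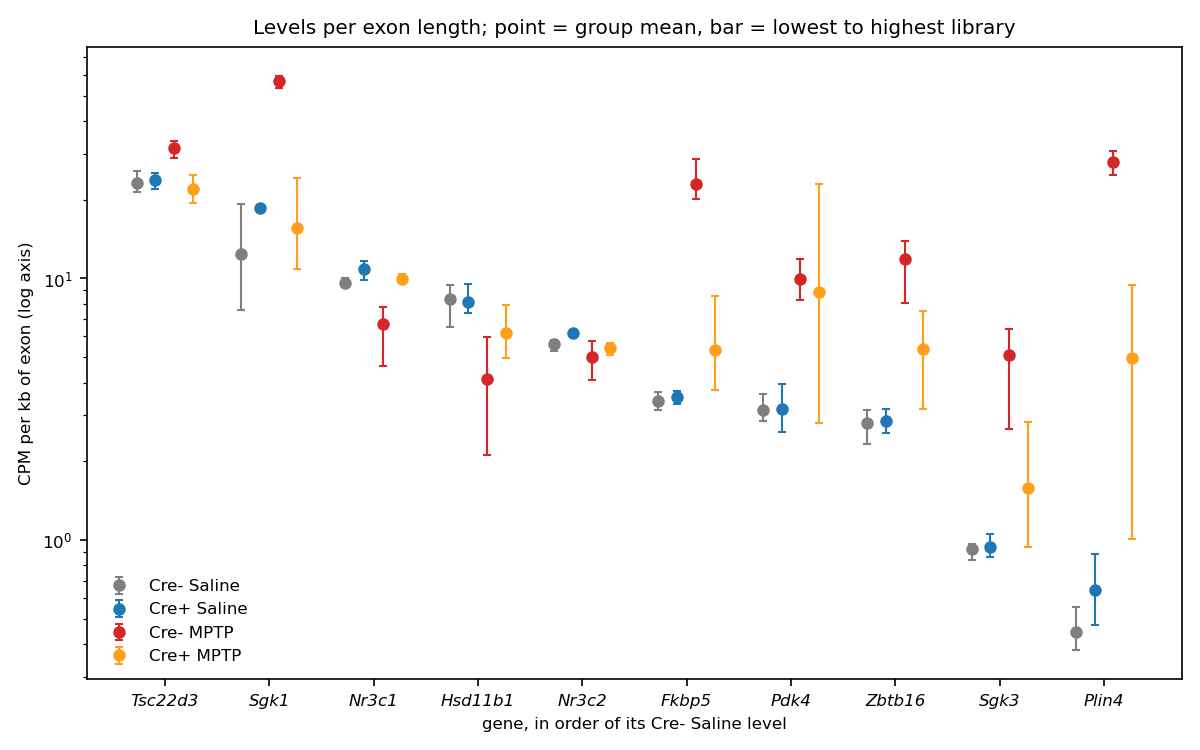
Level of each gene in CPM per kb of exon (log axis) in the 4 groups. Points are group means and bars run from the lowest to the highest library (n = 3, and n = 4 for Cre+ MPTP). Sgk1, Fkbp5, Plin4, Zbtb16 and Sgk3 sit highest in Cre- MPTP, where Sgk1 reached 56.7 CPM per kb.

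The first comparison asked what MPTP did in mice with intact astrocytic Ripk3. In Cre- mice, 5 of the 10 genes rose with MPTP and none was called lower: Plin4 62.1-fold, Fkbp5 6.72-fold, Sgk3 5.56-fold, Sgk1 4.55-fold and Zbtb16 4.24-fold (adjusted p under 0.05 by edgeR's quasi-likelihood test, where p was adjusted over all genes by Benjamini and Hochberg's method). Among all genes tested, 2.23% were called higher and 0.956% lower in this comparison. The median log2 fold change was 1.87 over the 10 genes and 0.03 over all genes tested. All 3 Cre- MPTP libraries lay above all 3 Cre- Saline libraries for the 7 induced genes, where 7.11% of all genes did so, and below them for Nr3c1 and Hsd11b1, where 8.02% did so. Leaving out Cre- MPTP replicate 1 gave 6 of the 10 genes higher and 1 lower, while the calls over all genes went from 431 to 992 higher and from 185 to 820 lower.

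The second comparison was the same treatment in mice without astrocytic Ripk3. In Cre+ mice, 0 of the 10 genes were called by edgeR in either direction, and 0% of all genes were called higher and 0% lower. At an unadjusted p under 0.05 there were 4 of the 10 genes and 672 of all genes, and DESeq2 called 1 of the 10, Plin4, higher, with 75 higher and 8 lower over all genes. The log2 fold changes ran from -0.39 (Hsd11b1) to 2.94 (Plin4), with a median of 0.24 against 0.00 over all genes. Fkbp5, Zbtb16 and Plin4 were above every Cre+ Saline library in all 4 Cre+ MPTP libraries, where 5.06% of all genes were, and Nr3c2 was below, where 4.61% were. For Fkbp5 and Zbtb16 the groups were apart by a narrow margin, with 23.8 against 23.7 CPM and 16.8 against 16.7 CPM at their edges.

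The third comparison set the genotypes side by side under MPTP. Fkbp5 (4.31-fold), Sgk1 (3.64-fold), Sgk3 (3.24-fold) and Plin4 (5.62-fold) were lower in Cre+ MPTP than in Cre- MPTP, and none of the 10 genes was called higher (edgeR, adjusted as before). Of all genes tested, 1.03% were called lower and 0.517% higher. The median log2 fold change was -0.83 over the 10 genes and 0.03 over all genes. All 4 Cre+ MPTP libraries lay below all 3 Cre- MPTP libraries for Fkbp5, Tsc22d3, Zbtb16, Plin4 and Sgk1 (5.07% of all genes did so) and above them for Nr3c1 (6.25% did so). The comparison shares its 3 Cre- MPTP libraries with the first one, so that the directions of both are not independent. The count of 4 was 0 when edgeR was fitted to the MPTP groups alone, 1 without Cre+ MPTP replicate 1 or replicate 3, 2 without Cre+ MPTP replicate 4, without the third Cre- MPTP mouse or without any 1 of the 6 Saline libraries, 6 without Cre- MPTP replicate 1, and 7 when both libraries that stood apart were removed. The lower calls over all genes moved as well, from 199 to 0 in the MPTP groups alone, 24, 21 and 67 without Cre+ MPTP replicate 1, 3 or 4, 372 without Cre- MPTP replicate 1 and 346 without both. DESeq2 and limma voom each called 6 of the 10 lower, adding Tsc22d3 and Zbtb16, with 565 and 736 lower over all genes.

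Under Saline the genotypes were close. None of the 10 genes was called, and 0% of all genes were called higher and 0% lower (176 of all genes and 0 of the 10 at an unadjusted p under 0.05). The log2 difference between Cre+ and Cre- ran from -0.04 (Hsd11b1) to 0.58 (Sgk1, SE 0.324, adjusted p = 1 by edgeR). The Sgk1 difference was 1.05 when Cre- Saline replicate 3 was dropped and 0.32 when replicate 1 of that group was. The test of whether the MPTP response differed between genotypes, the interaction of genotype and treatment, called 0 of the 10 genes, with 0.0103% of all genes called higher and 0% lower, although 6 of the 10, and 1116 of all 19360 genes tested, were at an unadjusted p under 0.05. The lowest edgeR adjusted p among the 10 was 0.137, for Fkbp5 (log2 difference of responses -2.16, SE 0.362) and Sgk1 (-2.45, SE 0.445). The threshold was passed by 3 genes without Cre- MPTP replicate 1, where edgeR's adjusted p was 0.019 for Fkbp5, 0.0246 for Sgk1 and 0.0349 for Sgk3, and by Fkbp5 and Sgk1 when Cre+ MPTP replicate 2 was dropped. Over all genes these fits called 103 and 52 lower, against 0 with every library.

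**Figure D2:**
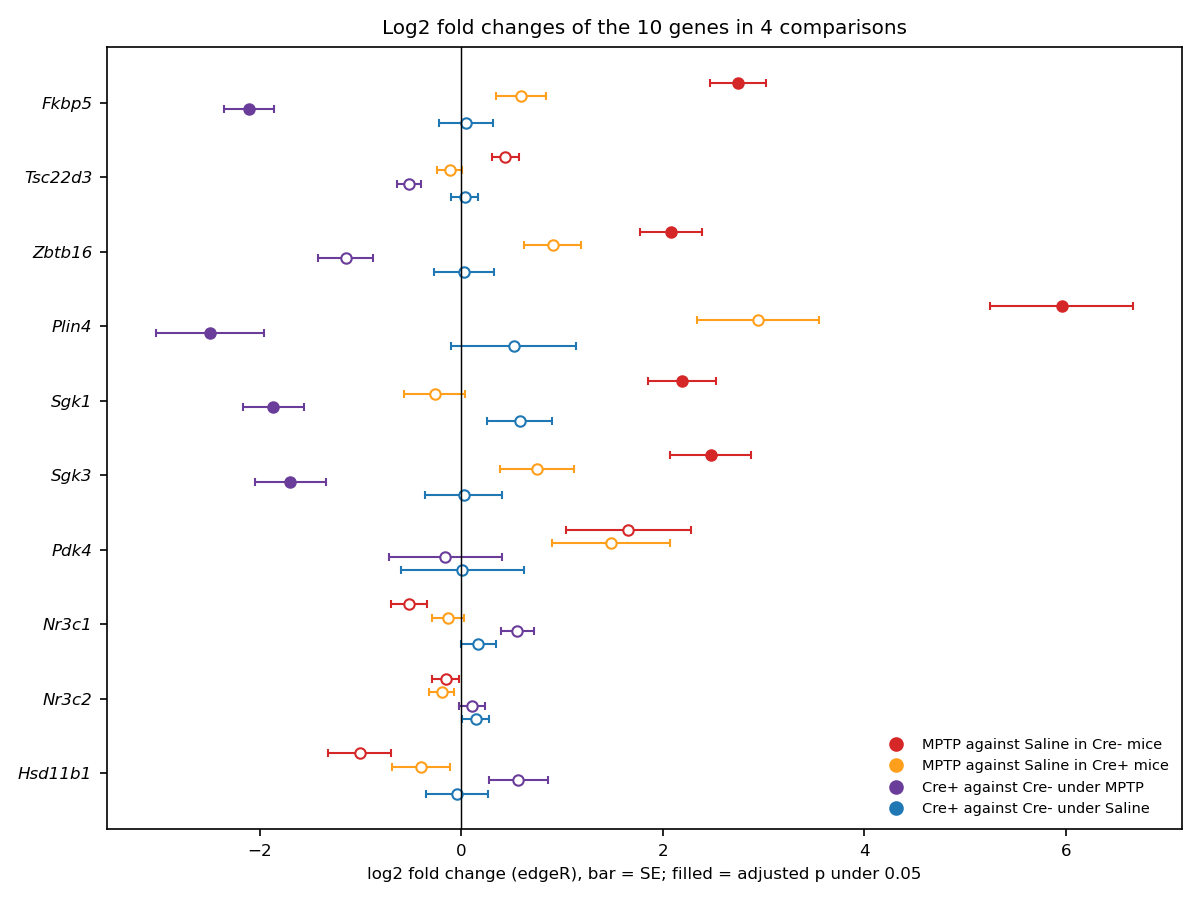
Log2 fold change (x axis, bars are SE) of the 10 genes in 4 comparisons, from edgeR over all 13 libraries. Filled points have an adjusted p under 0.05, which 5 genes reached for MPTP in Cre- mice, 4 for Cre+ against Cre- under MPTP, and 0 in the other 2 comparisons.

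Fkbp5 (ENSMUSG00000024222, chromosome 17, 28399094 to 28517527, minus strand, GRCm38) encodes the co-chaperone FKBP51 of the receptor complex. Its CPM were 23.3, 21.6 and 20.0 in Cre- Saline, 22.6, 20.99 and 23.7 in Cre+ Saline, 182, 128 and 128 in Cre- MPTP, and 28.4, 54.3, 23.8 and 29.0 in Cre+ MPTP. The Cre- MPTP libraries stood far above the other 10, and within Cre+ MPTP replicate 2 stood above the remaining 3. The log2 fold change with MPTP was 2.75 in Cre- mice (SE 0.28, edgeR's adjusted p = 0.000628) and 0.59 in Cre+ mice (SE 0.25, edgeR's adjusted p = 1). Without Cre+ MPTP replicate 2 the latter was 0.27. Under MPTP, Cre+ minus Cre- was -2.11 (SE 0.247, edgeR's adjusted p = 0.00563). It was -1.93 without Cre- MPTP replicate 1 (edgeR's adjusted p = 0.000672), and it passed the threshold whichever of the 13 libraries was dropped. It did not pass by edgeR on the MPTP groups alone (adjusted p = 0.2) or by edgeR with the mouse number as a block (0.0673). Those fits called 0 of all genes in this comparison.

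Tsc22d3 (ENSMUSG00000031431, X chromosome, 140539528 to 140600659, minus strand) encodes GILZ, an anti-inflammatory leucine zipper protein. Its CPM were 92.8, 97.2 and 112 in Cre- Saline, 104, 95.5 and 110 in Cre+ Saline, 139, 145 and 125 in Cre- MPTP, and 95.1, 108, 84.4 and 93.3 in Cre+ MPTP. The Cre- MPTP libraries were the highest 3 of the 13 by a small step, and the other 3 groups overlapped. The difference missed the threshold in both comparisons that use Cre- MPTP, with a log2 fold change of 0.44 with MPTP in Cre- mice (SE 0.132, edgeR's adjusted p = 0.119) and -0.52 for Cre+ against Cre- under MPTP (SE 0.122, edgeR's adjusted p = 0.0598). Both passed without Cre- MPTP replicate 1 (0.43 and -0.51, edgeR's adjusted p = 0.0307 and 0.0182).

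Zbtb16 (ENSMUSG00000066687, chromosome 9, 48654297 to 48836222, minus strand) encodes the zinc finger repressor PLZF. Its CPM were 16.6, 12.3 and 15.4 in Cre- Saline, 14.9, 13.6 and 16.7 in Cre+ Saline, 42.7, 73.6 and 71.3 in Cre- MPTP, and 23.1, 33.96, 16.8 and 39.6 in Cre+ MPTP. All 7 MPTP libraries were above all 6 Saline libraries, and the Cre- MPTP mice were above the Cre+ MPTP mice, with Cre- MPTP replicate 1 and Cre+ MPTP replicate 4 nearly meeting. With MPTP in Cre- mice the log2 fold change was 2.08 (SE 0.306, edgeR's adjusted p = 0.00257), and it was called whichever of the 13 libraries was dropped. In Cre+ mice it was 0.91 (SE 0.282, edgeR's adjusted p = 0.899). Between the genotypes under MPTP the difference (Cre+ minus Cre-) was -1.14 (SE 0.273, edgeR's adjusted p = 0.0632), and -1.36 without Cre- MPTP replicate 1 (edgeR's adjusted p = 0.00738).

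Sgk1 (ENSMUSG00000019970, chromosome 10, 21882184 to 21999903, plus strand), whose promoter window with the full element was shown above, encodes a kinase that acts on ion channels and transporters. Its CPM were 37.2, 51.5 and 94.5 in Cre- Saline, 94.0, 89.4 and 90.8 in Cre+ Saline, 280, 263 and 292 in Cre- MPTP, and 69.2, 119, 63.9 and 53.3 in Cre+ MPTP. Cre- MPTP was tightly grouped above all other mice, while Cre- Saline had the widest spread of the Saline groups and overlapped with Cre+ Saline. The log2 fold change with MPTP was 2.19 in Cre- mice (SE 0.337, edgeR's adjusted p = 0.00332) and -0.26 in Cre+ mice (SE 0.301, edgeR's adjusted p = 1). The rise in Cre- mice was called whichever of the 13 libraries was dropped, and not by edgeR on the 2 groups alone (adjusted p = 0.066). The genotype difference under MPTP was -1.87 (SE 0.303, edgeR's adjusted p = 0.0128), and it was lost without Cre+ MPTP replicate 1 or replicate 3, up to an adjusted p of 0.0585. It was also lost by edgeR on the MPTP groups alone (adjusted p = 0.2) and by edgeR with the mouse number as a block (0.0834).

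Sgk3 (ENSMUSG00000025915, chromosome 1, 9798107 to 9900845, plus strand) encodes the endosomal relative of Sgk1. Its CPM were 13.8, 13.8 and 11.98 in Cre- Saline, 15.1, 12.3 and 12.9 in Cre+ Saline, 38.1, 91.4 and 90.1 in Cre- MPTP, and 19.0, 40.3, 13.5 and 18.01 in Cre+ MPTP. Cre+ MPTP replicate 2 lay just above Cre- MPTP replicate 1, so that the MPTP groups overlapped by that pair. With MPTP in Cre- mice the log2 fold change was 2.48 (SE 0.4, edgeR's adjusted p = 0.00422), and 2.79 without Cre- MPTP replicate 1. In Cre+ mice it was 0.75 (SE 0.363, edgeR's adjusted p = 1), and 0.32 without Cre+ MPTP replicate 2. Cre+ minus Cre- under MPTP was -1.70 (SE 0.354, edgeR's adjusted p = 0.0368) and was called in 3 of 13 fits that left out a library, namely Cre- MPTP replicate 1, Cre- MPTP replicate 2 or Cre+ MPTP replicate 2.

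Plin4 (ENSMUSG00000002831, chromosome 17, 56100591 to 56109803, minus strand) encodes a perilipin that coats lipid droplets and is best known from adipocytes. Its CPM were 2.34, 2.19 and 3.21 in Cre- Saline, 5.09, 2.73 and 3.31 in Cre+ Saline, 144, 161 and 178 in Cre- MPTP, and 15.3, 54.7, 5.81 and 38.8 in Cre+ MPTP. Saline mice barely expressed the gene, Cre- MPTP mice were close together at a high level, and Cre+ MPTP mice were spread between. With MPTP the log2 fold change was 5.96 in Cre- mice (SE 0.71, edgeR's adjusted p = 0.00104) and 2.94 in Cre+ mice (SE 0.605, adjusted p = 0.247, edgeR, called by DESeq2 with an adjusted p of 0.000105). Between the genotypes under MPTP the difference (Cre+ minus Cre-) was -2.49 (SE 0.538, edgeR's adjusted p = 0.0406), from -3.01 to -2.15 with a library left out and called in 3 of those 13 fits. The adipocyte markers Adipoq, Plin1, Cidec and Lep summed to at most 0.67 CPM in every library, with Lep at 0 in 10 and Adipoq at 0 in 6. Plin4 overlaps with Hdgfl2 on the opposite strand (median count 1828), and since the strand setting of the counting is not given in the sources used here, reads of the pair in the overlap may not be told apart.

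Pdk4 (ENSMUSG00000019577, chromosome 6, 5483351 to 5496309, minus strand) encodes the kinase that switches off pyruvate dehydrogenase, and is high in fasting muscle and heart. Its CPM were 10.0002, 10.4 and 12.7 in Cre- Saline, 13.8, 10.5 and 9.06 in Cre+ Saline, 28.9, 41.7 and 33.8 in Cre- MPTP, and 13.3, 20.9, 9.80 and 80.7 in Cre+ MPTP. The highest of the 13 values was in Cre+ MPTP replicate 4, the library with 6334 CPM of muscle markers, and the other 3 Cre+ MPTP mice were below every Cre- MPTP mouse. The log2 fold change with MPTP in Cre- mice was 1.66 (SE 0.619, edgeR's adjusted p = 0.237), and 1.65 with an edgeR adjusted p of 0.00671 when Cre+ MPTP replicate 4, which enters the shared estimate of spread, was left out. The genotype difference under MPTP was -0.16 (SE 0.56, edgeR's adjusted p = 0.872). It was -1.25 without Cre+ MPTP replicate 4 (edgeR's adjusted p = 0.0726) and -1.38 without that library and Cre- MPTP replicate 1 (edgeR's adjusted p = 0.00719).

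**Figure D3:**
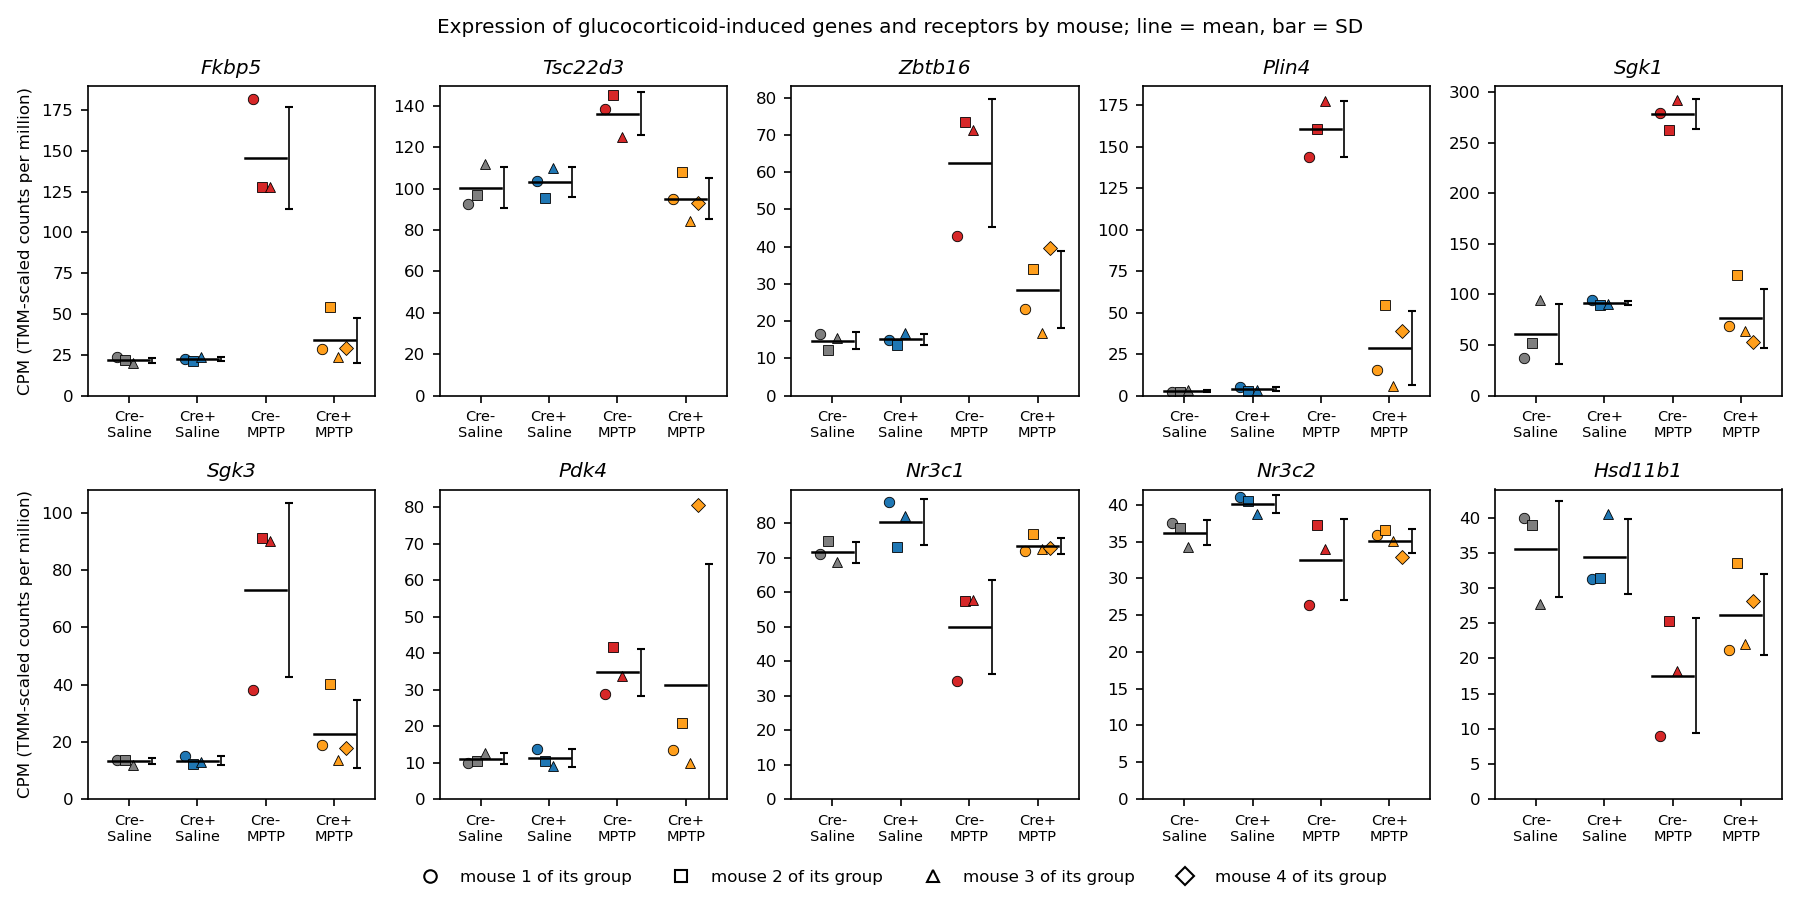
CPM (y axis, from 0) of each gene in each mouse, by group. Symbols mark the mouse number within a group, which is not known to pair mice. Lines are group means and bars SD, drawn no lower than 0. The Cre- MPTP mice lie above all others for Fkbp5, Tsc22d3, Zbtb16, Plin4 and Sgk1, and Pdk4 reached 80.7 CPM in 1 Cre+ MPTP mouse.

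Nr3c1 (ENSMUSG00000024431, chromosome 18, 39410545 to 39519421, minus strand) had 71.0, 74.8 and 68.9 CPM in Cre- Saline, 86.3, 73.1 and 82.0 in Cre+ Saline, 34.2, 57.6 and 57.9 in Cre- MPTP, and 71.9, 77.04, 72.6 and 72.7 in Cre+ MPTP. The receptor was thus lowest in the Cre- MPTP mice, whose 3 libraries were below the other 10, and the library that stood apart was the lowest of all. The log2 fold change with MPTP in Cre- mice was -0.52 (SE 0.175, edgeR's adjusted p = 0.185), and -0.31 with an edgeR adjusted p of 0.0348 without Cre- MPTP replicate 1. In Cre+ mice it was -0.13 (SE 0.162, edgeR's adjusted p = 1). Cre+ minus Cre- under MPTP was 0.56 (SE 0.165, edgeR's adjusted p = 0.144), and 0.35 without Cre- MPTP replicate 1 (edgeR's adjusted p = 0.0301).

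Nr3c2 (ENSMUSG00000031618, chromosome 8, 76899442 to 77245012, plus strand), which binds corticosterone more tightly than Nr3c1 does, had 37.6, 36.8 and 34.3 CPM in Cre- Saline, 41.0, 40.6 and 38.7 in Cre+ Saline, 26.4, 37.2 and 33.9 in Cre- MPTP, and 35.8, 36.5, 35.1 and 32.9 in Cre+ MPTP. Its values stayed within a narrow band apart from Cre- MPTP replicate 1. The log2 fold change with MPTP was -0.15 in Cre- mice (SE 0.136, 2 SE from -0.42 to 0.12, edgeR's adjusted p = 0.596) and -0.02 without that library. Between the genotypes under MPTP the difference (Cre+ minus Cre-) was 0.11 (SE 0.127, 2 SE from -0.15 to 0.36, edgeR's adjusted p = 0.621). The Cre+ Saline libraries lay above all Cre- Saline libraries (log2 difference 0.15, SE 0.135), where 5.91% of all genes did so. The Cre+ MPTP libraries lay below all Cre+ Saline libraries (log2 fold change -0.19, SE 0.126), where 4.61% did so. Neither difference was called by edgeR.

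Hsd11b1 (ENSMUSG00000016194, chromosome 1, 193221634 to 193264075, minus strand) had 40.0, 38.9 and 27.7 CPM in Cre- Saline, 31.3, 31.5 and 40.6 in Cre+ Saline, 8.995, 25.3 and 18.3 in Cre- MPTP, and 21.2, 33.5, 22.0 and 28.2 in Cre+ MPTP. The Cre- MPTP mice were below the Cre- Saline mice, and the Cre+ MPTP mice overlapped with both. The log2 fold change with MPTP was -1.01 in Cre- mice (SE 0.313, edgeR's adjusted p = 0.136), and DESeq2 and limma voom called it. It was -0.39 in Cre+ mice (SE 0.287, edgeR's adjusted p = 1). Hsd11b1 overlaps with Lamb3 on the opposite strand (median count 102), so that the limit on strand given for Plin4 holds here too. H6pd, the enzyme that feeds Hsd11b1 its cofactor, rose in Cre- mice from 8.90 ± 0.836 to 20.9 ± 1.39 CPM (SD, n = 3 each), a log2 fold change of 1.23 (SE 0.18, edgeR's adjusted p = 0.00257), and was lower in Cre+ MPTP at 11.3 ± 2.12 CPM (n = 4, edgeR's adjusted p = 0.0217). Akr1c14, a hydroxysteroid dehydrogenase, fell in Cre- mice from 2.56 ± 0.412 to 0.251 ± 0.281 CPM, with 1 library at 0 (edgeR's adjusted p = 0.00863), and was at 1.85 ± 0.588 CPM in Cre+ MPTP (n = 4, edgeR's adjusted p = 0.0368). Of this list of 6 genes of steroid metabolism and access, 4 could be tested: 1 was called higher and 1 lower in Cre- mice, and 0 in Cre+ mice. Among all genes tested, 2.23% were called higher and 0.956% lower in Cre- mice, and 0% in Cre+ mice.

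The 19 other genes of a list that glucocorticoids induce were examined in the same way. This list was drawn from general knowledge with earlier results of these data known, so its counts are not independent of them. After MPTP, 16 of the 19 were called higher and 0 lower in Cre- mice, with a median log2 fold change of 2.16. Of all genes tested, 2.23% were called higher and 0.956% lower there. In Cre+ mice 0 were called, with a median of 0.28, and 0% of all genes were called. Under MPTP, 12 were called lower and 0 higher in Cre+ than in Cre- mice, with a median of -2.26 (edgeR's quasi-likelihood test). Over all genes tested, 1.03% were called lower and 0.517% higher between the genotypes. The list holds genes that other signals also induce, among them Lcn2, Cebpd, Nfkbia and Zfp36 in inflammation and Cdkn1a in DNA damage. Lcn2, an iron-scavenging protein, had 0.681 ± 0.454 CPM in Cre- Saline (n = 3), 562 ± 89.6 in Cre- MPTP and 53.7 ± 66.5 in Cre+ MPTP (n = 4). Cdkn1a, the cell cycle inhibitor p21, rose by 4.56 on the log2 scale in Cre- mice (SE 0.66, edgeR's adjusted p = 0.00257), and Map3k6, a stress kinase, by 4.67 (SE 0.68, edgeR's adjusted p = 0.00257). Angptl4, a lipoprotein lipase inhibitor, rose by 3.40 (SE 0.49, edgeR's adjusted p = 0.00252), and the metallothionein Mt1 by 3.41 (SE 0.59, edgeR's adjusted p = 0.00609). The 3 genes that did not pass in Cre- mice were the clock gene Per1 (0.60, edgeR's adjusted p = 0.191), the phosphatase gene Dusp1 (1.05, edgeR's adjusted p = 0.358) and Klf9 (1.10, edgeR's adjusted p = 0.059).

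By mouse, 19, 19 and 18 of the 19 genes were above the Cre- Saline mean in the Cre- MPTP libraries, with median log2 differences of 3.29, 1.95 and 1.74. In Cre+ MPTP the numbers were 9, 18, 11 and 9 genes, with medians of -0.03, 0.76, 0.05 and -0.00. The Saline libraries had 4, 4 and 18 genes in Cre- Saline, whose own mean is the reference, with medians of -0.15, -0.12 and 0.29, and 12, 12 and 10 genes in Cre+ Saline, with medians of 0.25, 0.08 and 0.04. Cre+ MPTP replicate 2, which was the highest of its group for 8 of the 10 genes described first, had the highest median of its group here too, while its 18 genes equal the number in Cre- Saline replicate 3. The library with the highest list values was Cre- MPTP replicate 1. Without Cre- MPTP replicate 1, 17 genes of the list were higher with MPTP in Cre- mice and 15 lower in Cre+ than in Cre- mice under MPTP. The calls over all genes went from 431 to 992 higher and from 199 to 372 lower in these comparisons. The 12 genes lower between genotypes became 0 without Cre+ MPTP replicate 1 or replicate 3 and 1 without replicate 4, fits in which the lower calls over all genes also went from 199 to 24, 21 and 67. The 16 genes higher became 7 without Cre- Saline replicate 1 or replicate 2, and 4 with edgeR on the 2 groups. The higher calls over all genes went from 431 to 224, 213 and 105 in these fits.

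**Figure D4:**
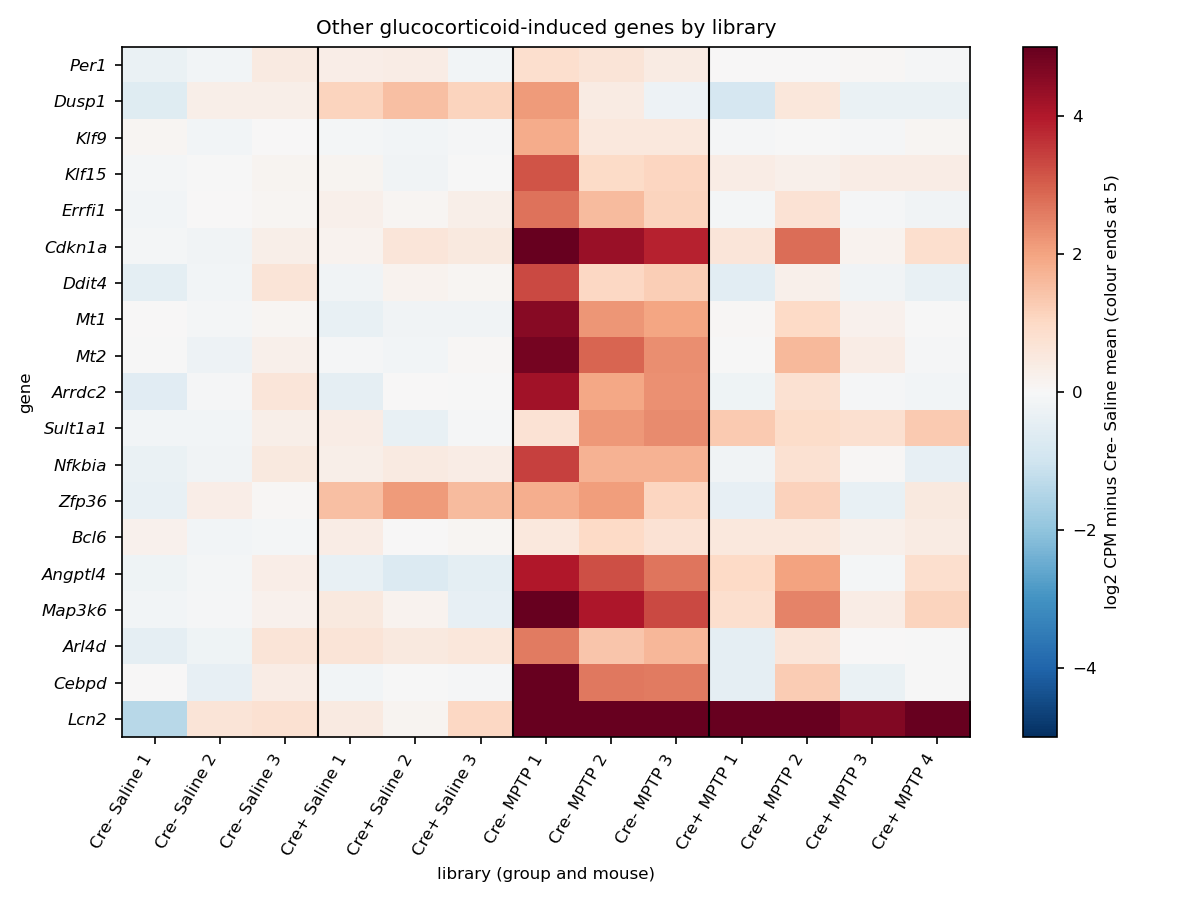
Log2 CPM of 19 other glucocorticoid-induced genes in each library minus the Cre- Saline mean (colour, ending at 5, rows are genes and columns libraries). The Cre- MPTP columns are red for nearly all rows, with medians of 1.74 to 3.29, and of the Cre+ MPTP columns replicate 2 has the highest median, 0.76.

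The machinery that carries the receptor gave no calls. Of 13 chaperones and cofactors, from Hsp90aa1 and Fkbp4 to the coactivator Ncoa1 and the acetyltransferase Ep300, 0 were called in any of the comparisons by edgeR. At an unadjusted p under 0.05 there were 0 with MPTP in Cre- mice and 1 for Cre+ against Cre- under MPTP. The median log2 fold change with MPTP in Cre- mice was 0.14, and 10 of the 13 were above 0. Of all genes, 2.23% were called higher and 0.956% lower there, so that 0 of 13 does not set this list apart. Of 6 substrates and effectors of the SGK kinases, 1 was called: Ndrg1, a phosphorylation target of Sgk1, fell with MPTP in Cre- mice from 216 ± 12.1 to 96.5 ± 24.3 CPM (n = 3 each, edgeR's adjusted p = 0.00295) and was at 166 ± 19.1 in Cre+ MPTP (n = 4, adjusted p = 0.0384 against Cre- MPTP, edgeR). Ndrg1 is also a gene of oligodendrocytes, whose 5 markers summed to 11860 to 16170 CPM in Cre- Saline and 8754 to 11320 in Cre- MPTP, and the part of these cells was not tested.

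**Figure D5:**
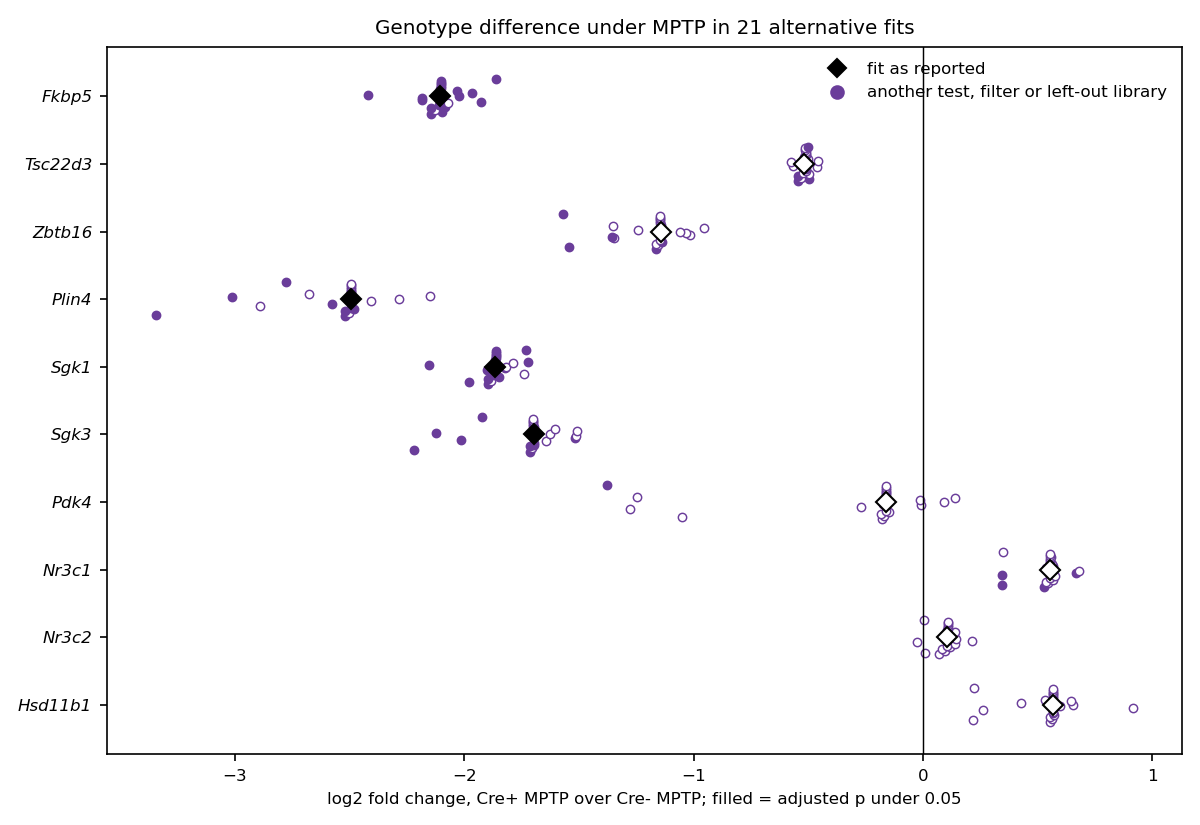
Log2 fold change of Cre+ over Cre- under MPTP (x axis) for each gene in the fit reported (diamonds) and in 21 alternatives (circles, spread vertically for sight). Filled symbols have an adjusted p under 0.05. Fkbp5 was filled in 19 of 21 alternatives and Plin4 and Sgk3 in 9 each, and Pdk4 ran from -1.38 to 0.14.

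Over the 13 libraries, the genes whose log2 CPM tracked each gene most closely were taken as a description, since all points share the 4 groups and their libraries. Fkbp5 tracked Nfkbiz (Pearson's r = 0.988), Cdkn1a (0.985) and Sdc4 (0.982). Plin4 tracked the endothelial adhesion molecules Sele (0.978) and Selp (0.977) and the scavenger receptor Msr1 (0.977), and Zbtb16 tracked Bcl6b (0.968), Plin4 (0.968) and Steap4 (0.964). Sgk3 tracked Cp, the ferroxidase ceruloplasmin (0.979), Osmr (0.977) and Tnfsf8 (0.977), and Sgk1 tracked Capn2 (0.961), Ch25h (0.96) and Setdb2 (0.959). Tsc22d3 tracked Carhsp1 (0.96), and Pdk4 tracked Txnip (0.955) and Cdh5 (0.94). Of the receptors and the enzyme, Nr3c1 tracked Tnfaip6 (0.985), Nr3c2 tracked Efl1 (0.936) and Hsd11b1 tracked Ptgfr (0.976). Among themselves, the induced genes had r from 0.462 (Sgk1 and Pdk4) to 0.968 (Zbtb16 and Plin4), and Nr3c1 had r = -0.811 with Fkbp5 and 0.872 with Hsd11b1.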

How the data were processed

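RNA was taken from midbrains of mice perfused with PBS and made into stranded total RNA libraries (2 × 150 bp). Per the labels and methods, Trimmomatic 0.36 was used for trimming, STAR 2.5.2b for alignment to GRCm38 and featureCounts (Subread 1.5.2) for counting. The deposited values are raw counts of unique hits per gene, beside an exon length per gene that the authors' counting gives, used for levels per kb. The strand setting is not given in the sources used here. The authors tested counts with DESeq2.

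Symbols and positions came from GENCODE M21 (49056 of 49315 genes matched) and groups from the labels. edgeR 4.0.16 (R 4.3.3) was run with TMM scaling, at least 10 counts in at least 3 libraries, a quasi-likelihood test on a model of the 4 group means fitted to the 13 libraries together, with p-values adjusted by Benjamini-Hochberg and calls at an adjusted p under 0.05. An SE is the absolute log2 fold change over the square root of F. Each library is 1 mouse. Alternatives were DESeq2 1.42.0, limma 3.58.1 voom with quality weights, edgeR on the groups compared, DESeq2 size factors, 2 other count filters, a replicate block, a log2 threshold of 1, each library dropped singly, and the pair of libraries that stood apart left out. The fits were tested on simulated data. The members, the gene lists and the tests were chosen with earlier results of these data known. Named genes are the members, the lists' genes and, for each member, up to 3 genes of highest correlation. Total counts of 11489150 to 29397278 per library set the precision, and limits from depth cover counting error only.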

Additional observations from a re-analysis of the deposited data

Results flagged for a closer look

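Values that lay far from the others of their group, by the ratio of the gap to the group's range (Dixon, critical value 0.829 for 4 samples), were found in Cre+ MPTP (n = 4) for 3 genes. Chance flags about 1 in 20 groups, and the groups of 3 mice were not examined. Fkbp5 was 54.3 CPM in replicate 2, with a ratio of 0.83, and Nr3c1 was 77.04 CPM in the same mouse, with a ratio of 0.842. Pdk4 was 80.7 CPM in replicate 4, with a ratio of 0.844, beside 6334 CPM of muscle markers in that library. The part of the muscle markers in the Pdk4 value was not tested.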

How the results depend on the processing

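When 1 of the 13 libraries at a time was dropped, the number of members higher with MPTP in Cre- mice ran from 5 to 6 and the number lower from 0 to 1. Under MPTP, Cre+ against Cre- gave 1 to 6 members lower and 0 to 1 higher, and the interaction gave 0 to 3 lower. Over all genes these fits called 213 to 992 higher and 98 to 820 lower with MPTP in Cre- mice. Between genotypes under MPTP they called 21 to 1581 lower and 18 to 245 higher, and 0 to 103 lower in the interaction. DESeq2 called 1 member lower in Cre- mice, 1 higher in Cre+ mice, 6 lower and 1 higher between genotypes under MPTP and 3 lower in the interaction. The counts from limma voom were 2 lower in Cre- mice, 6 lower and 1 higher between genotypes under MPTP and 6 lower in the interaction. Both tools also called Tsc22d3 higher in Cre- mice (adjusted p = 0.0101 by DESeq2 and 0.00689 by limma voom), and limma voom called Pdk4 (0.0118). Over all genes, DESeq2 and limma voom called 377 and 1251 lower in Cre- mice, against 185 in the fit reported. Between genotypes under MPTP they called 565 and 736 lower and 269 and 488 higher, against 199 and 100. In the interaction they called 140 and 398 lower, against 0. In Cre+ mice DESeq2 called 75 higher, against 0. edgeR on the 2 MPTP groups gave 0 members lower between genotypes, and this fit was not run for the interaction, which needs all 4 groups. Without a count filter the interaction gave 2 members lower, and 7 of all genes. With both libraries that stood apart removed, 7 members were lower between genotypes under MPTP and 4 in the interaction. Over all genes that fit called 346 and 119 lower. The signs that turned were those of Pdk4 and Nr3c2 with a library left out: Pdk4 ran from -1.25 to 0.14 between genotypes under MPTP and from -1.26 to 0.13 in the interaction, and Nr3c2 from -0.023 to 0.215 and from -0.168 to 0.0648. The cause of these changes was not tested.

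With the mouse number as a replicate block, 0 members were lower between genotypes under MPTP in place of 4 (Fkbp5 -2.07). Over all genes that fit called 0 lower in place of 199 and 0 higher in place of 100. The deviations of same-numbered mice from their group means had correlations from -0.179 to 0.184. Differently numbered mice were not compared, so that whether the numbers pair mice is not settled here. With 3 or 4 mice a group, small differences such as those of Nr3c2 were not detectable.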

Other observations

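The nearest relatives of the 10 genes gave no calls. Of 12 paralogs, 0 were called by edgeR in any comparison, with 6 of them and 2897 of all 19360 genes at an unadjusted p under 0.05 for MPTP in Cre- mice, a median log2 fold change of 0.43 there and a lowest adjusted p of 0.0659. Sgk2, the third SGK kinase, had 4.83 ± 0.878 CPM in Cre- Saline and 1.44 ± 1.09 in Cre- MPTP (SD, n = 3 each), a direction opposite to Sgk1 and Sgk3 (log2 fold change -1.70, SE 0.45, edgeR's adjusted p = 0.066). Of the perilipins, Plin2, which most cells with lipid droplets express, had 0.57 on the same log2 scale (SE 0.26, edgeR's adjusted p = 0.33), beside 5.96 for Plin4. Tsc22d4 had 848.9 CPM in Cre- MPTP replicate 1 and 195 to 196 in the other 2 Cre- MPTP libraries, against 121 to 132 in Cre- Saline.

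Zfp36, which degrades messages of inflammatory cytokines, had 18.9 ± 4.81 CPM in Cre+ Saline against 5.58 ± 1.3 in Cre- Saline (SD, n = 3 each), a log2 difference of 1.76 that was not called (SE 0.41, edgeR's adjusted p = 1). With MPTP its log2 fold change was 1.70 in Cre- mice (SE 0.41, edgeR's adjusted p = 0.0437) and -1.42 in Cre+ mice (SE 0.37, edgeR's adjusted p = 0.582), and the interaction had an edgeR adjusted p of 0.137.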
